A study of Mus musculus with 4 samples.

Results

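The genes described here are 42 genes of ribosome biogenesis and RNA polymerase I, chosen by name from a pathway list and not by any measured value. Earlier results of these data were known when the members were chosen. All 42 were among the 12767 gene symbols in the expression table. Each symbol was represented by its transcript with the highest average RPKM, a read count scaled to transcript length and library size, over the 4 libraries. The members had 73 transcripts in the table, 30 of them had a single transcript, and the representative transcripts of Noc2l and Gnl3 carry non-coding accessions.

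Total RNA was sequenced from MLg cells, a wild-type fibroblast line from mouse lung, in 4 conditions with 1 library each. In the Ctr library cells carried a negative control antagomiR, a modified antisense oligonucleotide, and in the miR-9-LOF library they carried an antagomiR against miR-9-5p, which stands for miR-9 loss-of-function. In the TGFB1 and TGFB1+miR-9-LOF libraries, cells carried the control and the miR-9-5p antagomiR, respectively, and also received human recombinant TGFB1. This cytokine, which drives matrix production in fibroblasts, was given at 5 ng/ml for 4 h from 20 h after transfection. The submitters' protocol gives 60 nM antagomiR and harvest at 24 h, their design text gives 10 nM and 48 h, and which of these applies to the libraries is not known here. All cells are 1 cell line, every condition has 1 library, and nothing states whether the libraries came from separate cultures. No test between conditions was therefore possible, no p-value is given, and each difference is a difference between 2 libraries. In bulk RNA, fewer cells of a type and less RNA per cell cannot be told apart.

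Ribosomes are made mostly in the nucleolus. RNA polymerase I transcribes the ribosomal RNA (rRNA) precursor, small nucleolar RNAs (snoRNAs) in protein complexes called snoRNPs guide its chemical modification, and a large set of assembly factors cleave, fold and export the small and the large subunit. In fibroblasts this program rises when cells enter growth, and MYC, which binds E-box sequences, is a known activator of many of its genes. The study asked how miR-9 shapes transcription with and without TGFB1, and the members show how the ribosome biogenesis program stood in each of these conditions.

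The antagomiR was directed at the mature miR-9-5p, which is encoded at 3 loci on chromosomes 3, 7 and 13. It is shown because its loss defines the comparison, with its seed (bases 2 to 8) in capitals.
miR-9-5p: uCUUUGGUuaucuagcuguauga

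The promoters shown next belong to the members with the largest differences, namely Nop58, Tsr1, Wdr43 and Wdr75. RefSeq promoters (assembly GRCm38.p6, 250 bases before to 50 bases after the annotated start) matched 37 of the 42 members, with 46 promoters, and Npm1 was not matched. Capitals mark 2 motifs: CACGTG, the E-box of the MYC family, and a G-quadruplex pattern of 4 runs of GGG spaced by 1 to 7 bases, searched on both strands, so that a run on the other strand reads as CCC.
Nop58, chr1:59684756-59685055, + strand: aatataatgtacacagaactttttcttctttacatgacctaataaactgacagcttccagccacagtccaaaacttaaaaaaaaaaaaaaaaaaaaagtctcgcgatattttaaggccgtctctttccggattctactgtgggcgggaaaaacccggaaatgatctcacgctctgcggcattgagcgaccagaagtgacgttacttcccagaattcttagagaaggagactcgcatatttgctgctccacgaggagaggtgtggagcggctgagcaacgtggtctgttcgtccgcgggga
Tsr1, chr11:74897830-74898129, + strand: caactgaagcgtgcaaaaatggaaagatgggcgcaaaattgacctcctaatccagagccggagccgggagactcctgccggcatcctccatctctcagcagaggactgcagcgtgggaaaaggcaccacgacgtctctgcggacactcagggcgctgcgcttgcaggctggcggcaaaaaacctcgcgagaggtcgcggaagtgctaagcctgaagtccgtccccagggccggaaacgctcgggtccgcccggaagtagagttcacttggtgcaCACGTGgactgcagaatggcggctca
Wdr43, chr17:71615965-71616264, + strand: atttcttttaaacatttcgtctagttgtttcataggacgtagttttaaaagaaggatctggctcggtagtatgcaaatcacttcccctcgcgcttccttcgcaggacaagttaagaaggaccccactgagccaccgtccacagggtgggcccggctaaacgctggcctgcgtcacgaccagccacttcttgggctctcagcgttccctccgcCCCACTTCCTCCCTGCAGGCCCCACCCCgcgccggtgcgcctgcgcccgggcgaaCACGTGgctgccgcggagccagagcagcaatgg
Wdr75, chr1:45794916-45795215, + strand: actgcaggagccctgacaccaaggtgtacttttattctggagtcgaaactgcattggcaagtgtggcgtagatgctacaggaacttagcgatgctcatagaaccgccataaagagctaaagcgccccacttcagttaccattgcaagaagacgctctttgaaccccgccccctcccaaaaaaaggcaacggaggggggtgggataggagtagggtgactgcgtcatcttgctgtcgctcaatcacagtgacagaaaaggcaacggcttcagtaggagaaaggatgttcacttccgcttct

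The E-box lies 24 bases after the start base in Tsr1 and 17 bases after it in Wdr43, and the G-quadruplex pattern of Wdr43 is on the other strand. Neither motif was in the windows of Nop58 and Wdr75. Over all members, 8 of 46 promoters (17.4%) held CACGTG, against 7.15% of the 32851 promoters of the same length in the table. These were the promoters of Ltv1, Mybbp1a, Nop2, Pes1, Rrn3, Tsr1, Utp20 and Wdr43. The G-quadruplex pattern was in 7 of 46 member promoters (15.2%), of the 5 genes Gnl3, Nhp2, Noc2l, Ubtf and Wdr43, against 18.5% of all promoters. The median GC content was 59.3% in member promoters and 52.7% in all promoters. These matches describe the sequence windows and are no evidence of binding.

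The transcript counts summed to between 14718397 in the miR-9-LOF library and 27413486 in the Ctr library, so the miR-9-LOF values carry the widest counting error. Rn45s, the entry of the rRNA precursor, took 17.9% of all counts in the Ctr library, 27.4% in miR-9-LOF, 15.3% in TGFB1 and 21.4% in TGFB1+miR-9-LOF. Rn45s enters the library totals, so a higher Rn45s share lowers the RPKM of every other gene. The sample titles point to rRNA depletion, and the part of depletion in the Rn45s counts was not tested. The microRNA entry Mir6236 took between 0.441% and 5.23% of counts and Lars2, a mitochondrial leucyl-tRNA synthetase, between 0.222% and 0.759%, and both were higher in the miR-9-LOF libraries. Rn45s, Mir6236 and Lars2 are given as shares of reads, and which RNA the reads of these entries came from was not tested. For Rn45s, precursor and mature rRNA were not told apart. Of the fibroblast markers, 11 of 12 were in the table, all averaging at least 1 RPKM and with a summed RPKM of 1709 to 3029. Of 11 epithelial, 8 endothelial and 9 leukocyte markers, 3, 2 and 4 were in the table, with summed RPKM of 3.50 to 6.82, 0.326 to 0.440 and 5.22 to 7.35, and the others are not listed there.

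The share of counts held by the 42 members varied little. They took 50103, 25539, 41830 and 34323 counts in the Ctr, miR-9-LOF, TGFB1 and TGFB1+miR-9-LOF libraries, the order used for all sets of 4 values, which is 0.183%, 0.174%, 0.192% and 0.180% of the totals. When Rn45s was left out of the totals the shares were 0.223%, 0.239%, 0.226% and 0.230%, and the miR-9-LOF library then had the highest share in place of the lowest. The summed RPKM of the members was 604, 577, 621 and 603. The median member count was 667.5, 315, 582.5 and 500, and the lowest count was 77, for Gar1 in the miR-9-LOF library.

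**Figure D1:**
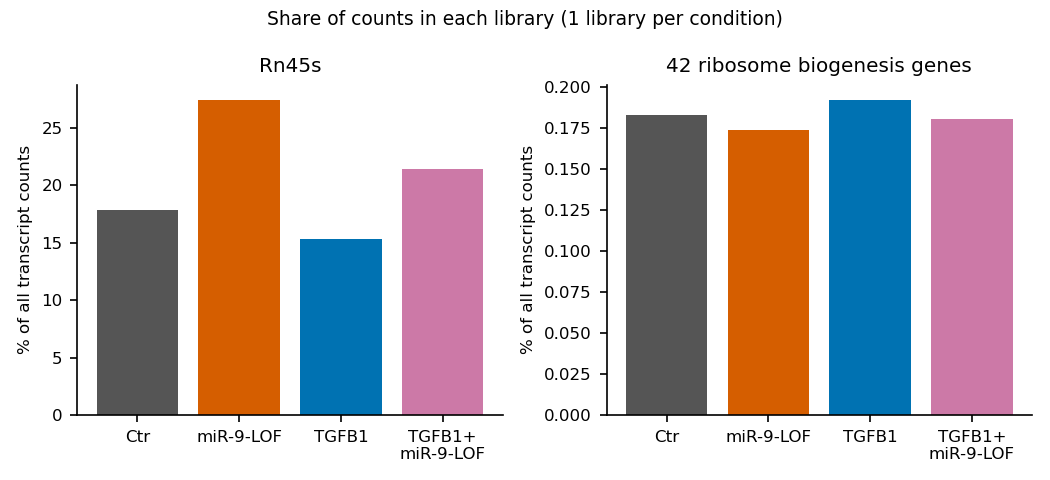
Share of all transcript counts taken by Rn45s (left) and by the 42 ribosome biogenesis genes (right), in percent, with 1 bar per library and no error bar because each condition has 1 library. Rn45s ranges from 15.3% to 27.4%, and the members' share from 0.174% to 0.192%.

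Levels between genes are compared per length, as mean RPKM over the 4 libraries. The members spanned 3.07 (Ddx10) to 91.3 (Mybbp1a), with a median of 9.02, against 4.88 over all genes that averaged at least 1 RPKM. Mybbp1a, a nucleolar protein that binds MYB and regulates rRNA synthesis, led with 89.9, 97.8, 91.1 and 86.2 RPKM. Nop56 followed with 63.2, 50.0, 57.0 and 52.3 RPKM, Nhp2 with 38.4, 40.2, 34.9 and 40.7 RPKM, Nop2 with 28.5, 31.9, 28.0 and 28.1 RPKM, and Tcof1 with 27.9, 23.8, 26.3 and 21.1 RPKM. The lowest were Ddx10, with 2.89, 2.43, 3.31 and 3.63 RPKM, Nip7, with 3.28, 3.23, 3.71 and 3.54 RPKM, and Wdr75, with 2.72, 2.95, 4.01 and 4.71 RPKM. Each member differed little between libraries, as its highest RPKM was between 1.08 (Fbl) and 1.89 (Tsr1) times its lowest, with a median of 1.33. The median over all genes at or above the lowest member level was 1.38. For 21 of 42 members the lowest value was in the miR-9-LOF library, and for 17 the highest was in the TGFB1 library, where 48.5% and 34.1% of all genes that averaged at least 1 RPKM had theirs. With TMM scaling the counts were 15 and 7 (35.6% and 26.0% of all genes).

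**Figure D2:**
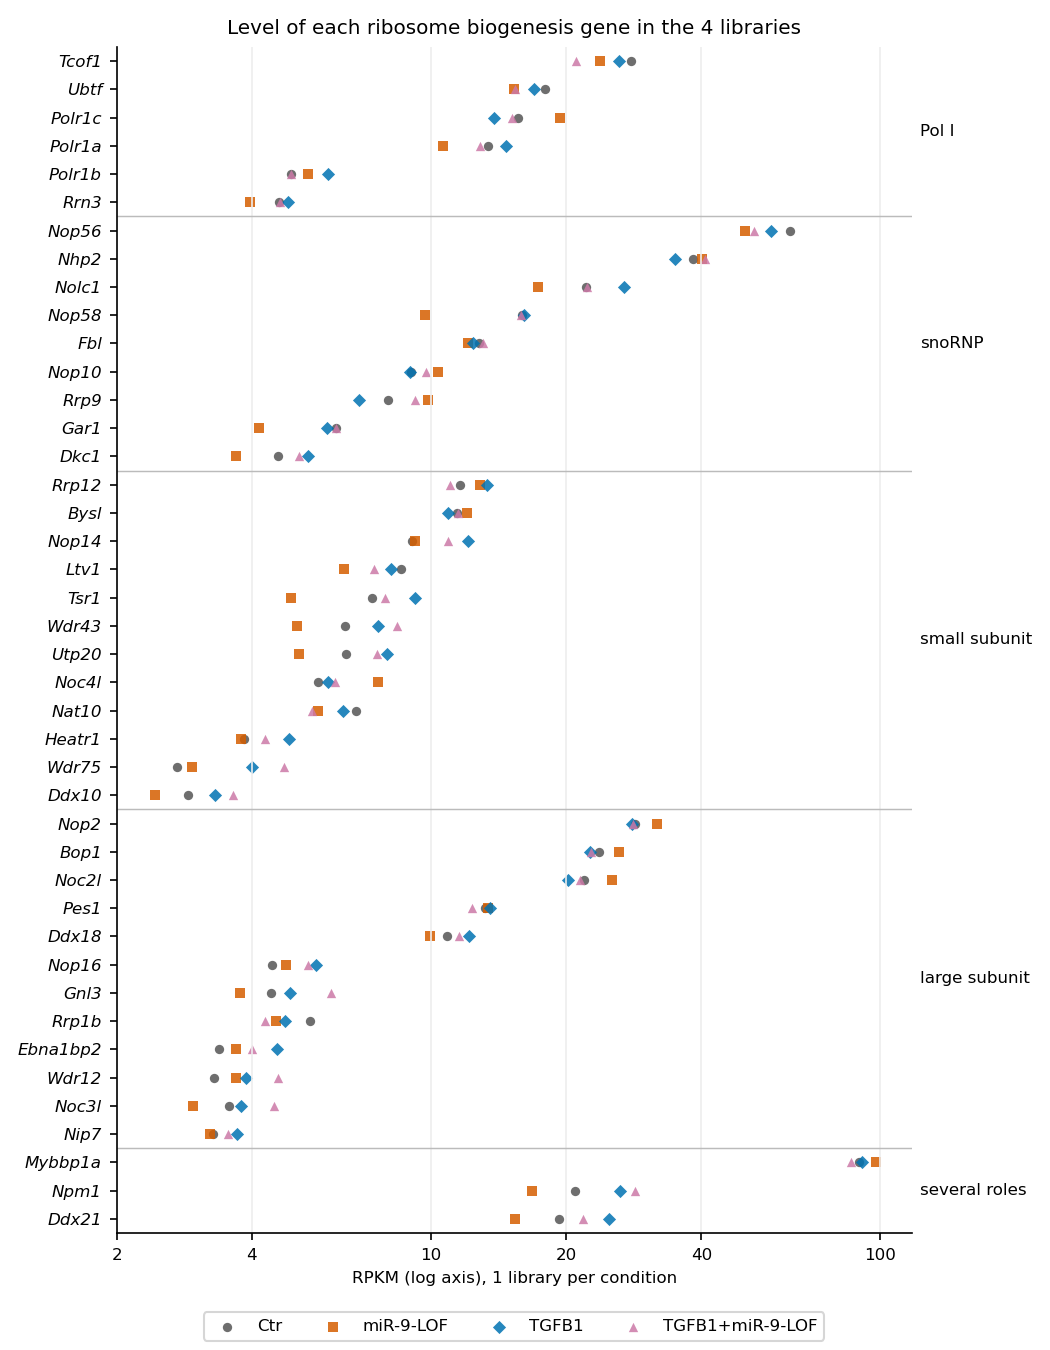
RPKM of each member in the 4 libraries on a log axis, ordered by mean level within each role group, with 1 point per library. Mybbp1a lies near 91.3 RPKM and Ddx10 near 3.07 RPKM, and the 4 points of a gene are closer together than most genes are to each other.

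Proteins of 1 complex had very different mRNA levels per length. In the box C/D snoRNP, which methylates rRNA, Nop56 had a mean RPKM of 55.6, and its partners Nop58 and the methyltransferase Fbl had 14.4 and 12.6. In the box H/ACA snoRNP, which converts uridine to pseudouridine, Nhp2 had 38.6, Nop10 9.54, Gar1 5.59 and the catalytic Dkc1 4.67. In the large subunit complex of Pes1, Bop1 and Wdr12, Bop1 had 23.8, Pes1 13.1 and Wdr12 3.86. Among RNA polymerase I subunits, Polr1c, which polymerase III shares, had 16.0, the largest subunit Polr1a had 12.9, and Polr1b had 5.26.

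Differences between libraries are given as the log2 ratio of RPKM + 1, and a gene is said to have risen or fallen where this ratio is 0.58 or more in size (a 1.49-fold ratio, the limit the study used). Brackets after an RPKM ratio hold its exact 95% Clopper-Pearson interval from the counts, which covers counting error and no variation between cultures. Intervals are narrower for genes with more counts. The median level of the members was 9.02 RPKM, against 4.88 over all genes that averaged at least 1 RPKM. Shares of members and of all genes with intervals that leave out 1 are therefore not compared at like counts. All 42 members averaged at least 1 RPKM over the 2 libraries of every comparison and so entered all 5.

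For miR-9-LOF over Ctr, 1 of 42 members fell (Nop58) and 0 rose, where 6.72% of the 9291 genes compared fell and 2.03% rose. With TMM scaling these shares were 2.24% and 3.62%. The member median was -0.10, above the all-gene median of -0.17, and 22 of 42 members were above the all-gene median. The sign of the member median depended on the scaling of the libraries, as it was between 0.07 and 0.16 when the ratios were centred on the median of all genes, with TMM or upper quartile scaling, or with totals that leave out Rn45s alone or Rn45s, Mir6236 and Lars2. The difference between the member median and the all-gene median was 0.07 to 0.11 under every one of these scalings. Counting intervals lay below 1 for 17 members, where they did for 43.6% of all genes compared, above 1 for 8 members (10.1% of all genes), and held 1 for 17. With TMM scaling they lay below 1 for 8 members (25.8% of all genes) and above 1 for 16 (21.2%), so these counts rest on the scaling.

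Nop58, a scaffold of the box C/D snoRNP, had 858, 280, 688 and 591 counts and 16.0, 9.71, 16.1 and 15.9 RPKM. The miR-9-LOF library was low and the other 3 lay between 15.9 and 16.1 RPKM. The ratio of miR-9-LOF over Ctr was 0.608 (0.529 to 0.696) and the log2 ratio -0.66, which was -0.42 to -0.51 under the other 5 scalings and then past the limit in 0 of 5. With TGFB1 the miR-9-LOF ratio of Nop58 was 0.985 (0.881 to 1.10). The gene is at chr1:59684961-59711510 (GRCm38), and the promoter printed for it held neither motif.

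The next lowest members for miR-9-LOF over Ctr were Tsr1 (log2 ratio -0.52), Gar1 (-0.48), Ltv1 (-0.37) and Nolc1 (-0.34), and none of these passed the limit. Tsr1 is a GTPase-like factor of late small subunit assembly and had 7.42, 4.88, 9.23 and 7.93 RPKM, the widest range among the members. Gar1, an H/ACA protein, had 6.16, 4.15, 5.89 and 6.17 RPKM, so that, as for Nop58, only the miR-9-LOF value stood below the other 3. Ltv1, a small subunit assembly factor, had 8.60, 6.43, 8.15 and 7.49 RPKM, and Nolc1, a snoRNP chaperone, had 22.1, 17.3, 26.9 and 22.3 RPKM. The highest were Noc4l (0.38), Polr1c (0.29), Rrp9 (0.27), Noc2l (0.20) and Nop10 (0.18). Noc4l, a small subunit factor, had 5.61, 7.63, 5.92 and 6.11 RPKM, and its log2 ratio was 0.64, past the limit, only with totals that leave out Rn45s, Mir6236 and Lars2.

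By role, the median log2 ratio of miR-9-LOF over Ctr was -0.19 for RNA polymerase I and its factors (6 genes) and -0.25 for snoRNP proteins (9 genes). The snoRNP proteins include the chaperone Nolc1, so they are not all core proteins. The median was -0.10 for small subunit assembly (12 genes), 0.05 for large subunit assembly (12 genes) and -0.31 for the 3 nucleolar proteins with several roles. The all-gene median of this comparison was -0.17, and the medians by role shift with the scaling as the median of all members does. Among large subunit factors the rRNA methyltransferase Nop2 and Bop1 had ratios of 1.12 (1.04 to 1.20) and 1.11 (1.02 to 1.20).

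**Figure D3:**
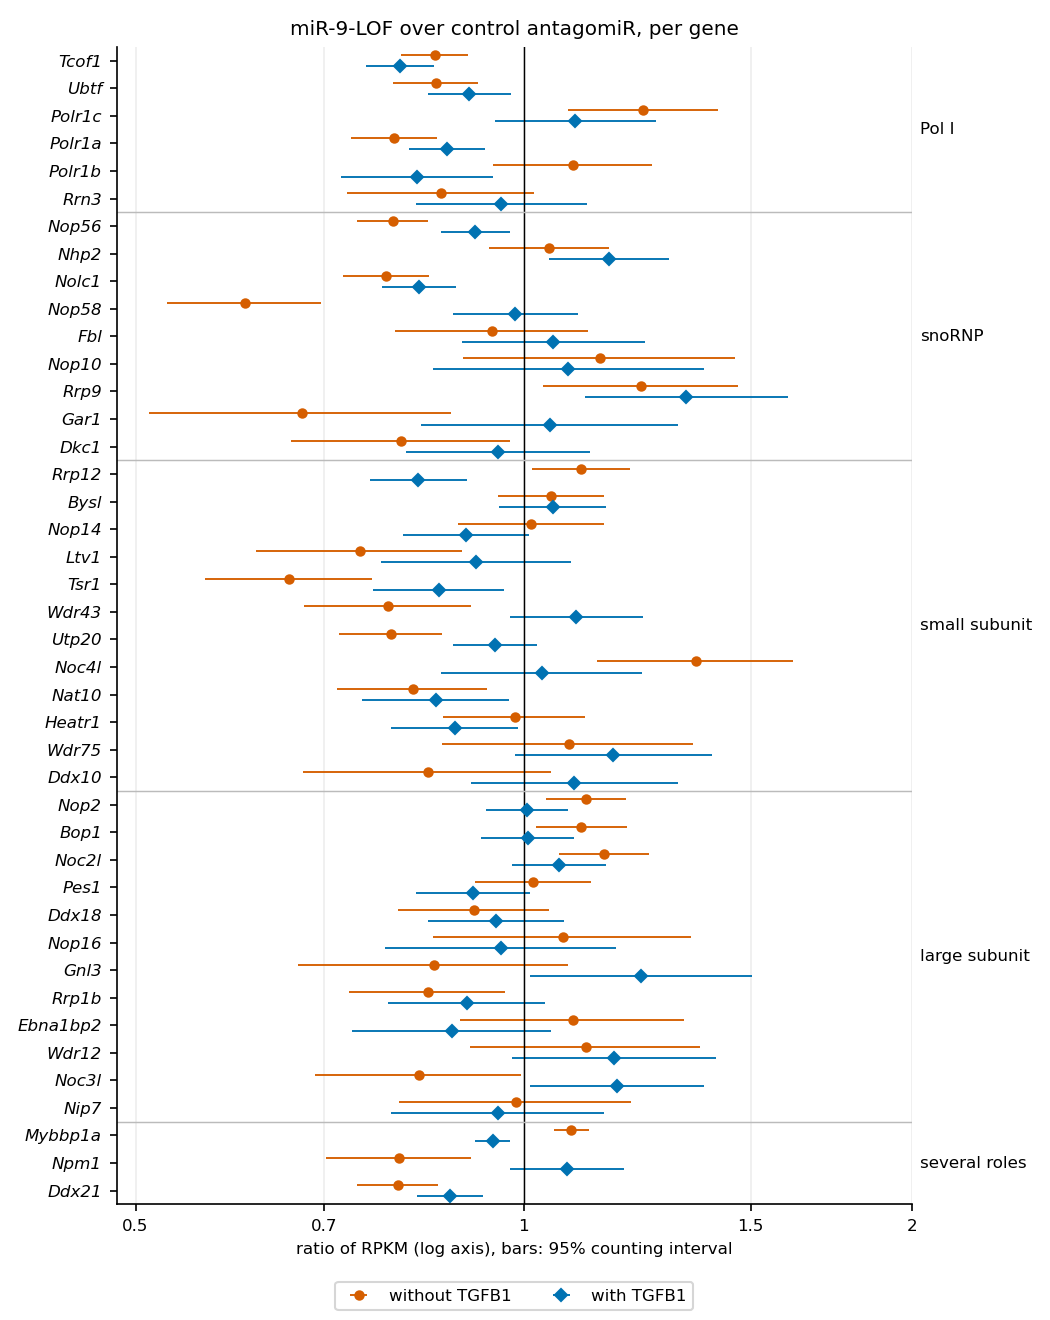
Ratio of RPKM of miR-9-LOF over the control antagomiR for each member on a log axis, without TGFB1 (circles) and with TGFB1 (diamonds), with bars for the 95% counting interval. Nop58 is at 0.608 without TGFB1 and at 0.985 with it, and Noc3l, Rrp12 and Mybbp1a have their 2 intervals on opposite sides of 1 with the RPKM as deposited, of which Rrp12 alone does with TMM scaling.

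In the presence of TGFB1, 0 of 42 members rose or fell with miR-9-LOF, where 2.06% of the 9535 genes compared rose and 1.48% fell. The member median for TGFB1+miR-9-LOF over TGFB1 was -0.05 and the all-gene median -0.08, and the member median was above 0 under the other 5 scalings, at 0.02 to 0.13. The lowest members were Tcof1 (-0.30), Nolc1 (-0.26), Rrp12 (-0.25), Polr1b (-0.23) and Tsr1 (-0.20). Tcof1 encodes treacle, which holds RNA polymerase I factors in the nucleolus, and Rrp12, known in yeast as an export factor of ribosomal subunits, had 11.6, 12.9, 13.3 and 11.1 RPKM. The highest were Rrp9 (0.37), Gnl3 (0.26), Nhp2 (0.21), Noc3l (0.19) and Wdr12 (0.19). Rrp9, a protein of the U3 snoRNP, had 8.01, 9.88, 6.91 and 9.24 RPKM, and both miR-9-LOF libraries were above both libraries without it. Rrp9 was named for its miR-9-LOF ratios, so this order is no separate support.

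The miR-9-LOF ratios without and with TGFB1 come from separate libraries and can be set side by side. Relative to the all-gene median of each comparison, 15 members were above it in both, 10 were below it in both and 17 were on opposite sides, so that 59.5% were on the same side, against 61.2% of the 9132 genes compared in both. Without this centring, counting intervals were below 1 in both comparisons for 8 members, namely Nop56, Tcof1, Nolc1, Ddx21, Ubtf, Polr1a, Tsr1 and Nat10, where they were for 20.8% of all genes. With TMM scaling Ddx21, Nolc1 and Polr1a remained (10.6% of all genes). Intervals were above 1 in both only for Rrp9 (3.55% of all genes), and with TMM scaling for 6 members, namely Bysl, Nhp2, Noc2l, Polr1c, Rrp9 and Wdr12 (6.89%). They were on opposite sides of 1 for 3 members, Mybbp1a, Noc3l and Rrp12 (1.95% of all genes), and with TMM scaling for Rrp12 alone (3.25%). Ubtf, the factor that binds the rRNA gene promoter, had 17.9, 15.3, 17.0 and 15.4 RPKM, and Polr1a had 13.4, 10.6, 14.7 and 12.8 RPKM. For Nop56 the ratios were 0.791 (0.743 to 0.843) and 0.917 (0.863 to 0.975). Rn45s, which is part of the totals, had ratios of 1.54 and 1.40 in these comparisons. The part of rRNA depletion or of mature rRNA in these Rn45s ratios was not tested, and RNA polymerase I activity was not measured. Rrn3, which brings the polymerase to the promoter, had 4.60, 3.97, 4.82 and 4.63 RPKM, and both of its intervals held 1.

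TGFB1 without miR-9-LOF left all members within the limit, as 0 of 42 rose or fell, where 2.68% of the 9527 genes compared rose and 2.92% fell. The member median was 0.07 and the all-gene median -0.01, and 27 of 42 members were above the all-gene median. The highest were Wdr75 (log2 ratio 0.43), Nop14 (0.38), Ddx21 (0.35), Ebna1bp2 (0.34) and Npm1 (0.32). Nop14, a small subunit factor, had 9.10, 9.22, 12.1 and 10.9 RPKM, and both TGFB1 libraries were above both libraries without TGFB1. Nop14 was named for its TGFB1 ratio, so this order is no separate support. Ddx21, an RNA helicase of rRNA synthesis and processing, had 19.3, 15.4, 24.9 and 21.9 RPKM. Ebna1bp2, a large subunit factor, had 3.38, 3.69, 4.54 and 3.99 RPKM. The lowest were Rrp9 (-0.19), Polr1c (-0.16), Rrp1b (-0.16), Nop56 (-0.14) and Nhp2 (-0.13). By role, the median was 0.20 for small subunit factors, 0.10 for large subunit factors and 0.32 for the nucleolar proteins with several roles. It was -0.04 for the snoRNP proteins and -0.01 for RNA polymerase I and its factors. Among the other pathway genes described below, it was 0.09 for small subunit factors and 0.10 for large subunit factors.

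With miR-9-LOF in both libraries, some members passed the limit for TGFB1, and the difference from the comparison without miR-9-LOF was not tested. For TGFB1+miR-9-LOF over miR-9-LOF, 4 of 42 members rose and 0 fell, where 7.13% of the 9345 genes compared rose and 2.48% fell. These were Npm1 (log2 ratio 0.73), Nop58 (0.65), Wdr43 (0.64) and Tsr1 (0.60), and Gnl3, at 0.56, came next. The lowest were Polr1c (-0.33), Noc4l (-0.28), Noc2l (-0.23), Rrp12 (-0.20) and Bop1 (-0.19). The member median was 0.12, or 0.03 to 0.06 under the other 5 scalings, and the all-gene median 0.05. This comparison uses the miR-9-LOF library as its base, and all 4 risen members had their lowest RPKM in that library. For TGFB1+miR-9-LOF over Ctr their log2 ratios were 0.43 (Npm1), 0.34 (Wdr43), 0.09 (Tsr1) and -0.01 (Nop58).

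Npm1, a nucleolar chaperone of ribosome assembly and export, had 787, 338, 788 and 742 counts and 21.0, 16.8, 26.4 and 28.5 RPKM. Both TGFB1 libraries were above both libraries without TGFB1, and the ratio of TGFB1+miR-9-LOF over miR-9-LOF was 1.70 (1.49 to 1.94). Npm1 was named for its ratios, so this order of the same values is no separate support. Its log2 ratio stayed past the limit under all 5 other scalings (0.62 to 0.68). Reads of Npm1 are uncertain, because processed copies of this gene lie elsewhere in the genome. The gene is at chr11:33152498-33164142.

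Wdr43, a subunit of the complex that joins the nascent rRNA precursor first, had 605, 255, 572 and 548 counts and 6.43, 5.05, 7.65 and 8.40 RPKM. The ratio of TGFB1+miR-9-LOF over miR-9-LOF was 1.66 (1.43 to 1.94), and the log2 ratio was past the limit in 1 of 5 other scalings. For Nop58 the ratio was 1.63 (1.41 to 1.89), also past the limit in 1 of 5. Tsr1, with 685, 242, 678 and 508 counts, had a ratio of 1.62 (1.39 to 1.90), past the limit in 0 of 5 other scalings. Wdr43 is at chr17:71616178-71659031 and Tsr1 at chr11:74898080-74909340, and both promoters held CACGTG.

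The TGFB1 ratio without and with miR-9-LOF, again from separate libraries, was on the same side of the all-gene median for 76.2% of members, with 21 above it in both and 11 below it in both, against 69.5% of the 9209 genes compared in both. Counting intervals were above 1 in both for 10 members, namely Npm1, Nolc1, Ddx21, Polr1a, Ddx18, Nop14, Tsr1, Wdr43, Utp20 and Wdr75, where they were for 14.2% of all genes. With TMM scaling 8 of the 10 remained, without Ddx18 and Nop14 (12.1% of all genes). They were below 1 in both for Tcof1 and Noc2l, also with TMM scaling (11.5% of all genes, and 14.2% with TMM). For Rrp12 the interval was above 1 with the control antagomiR (ratio 1.15) and below 1 with miR-9-LOF (0.858), as for 2.63% of all genes, and with TMM scaling this was so for Rrp12 and Polr1b. Ddx18, a large subunit helicase, had 10.9, 9.94, 12.2 and 11.6 RPKM, and Utp20, a large scaffold of the small subunit precursor, had 6.47, 5.10, 7.99 and 7.59 RPKM.

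**Figure D4:**
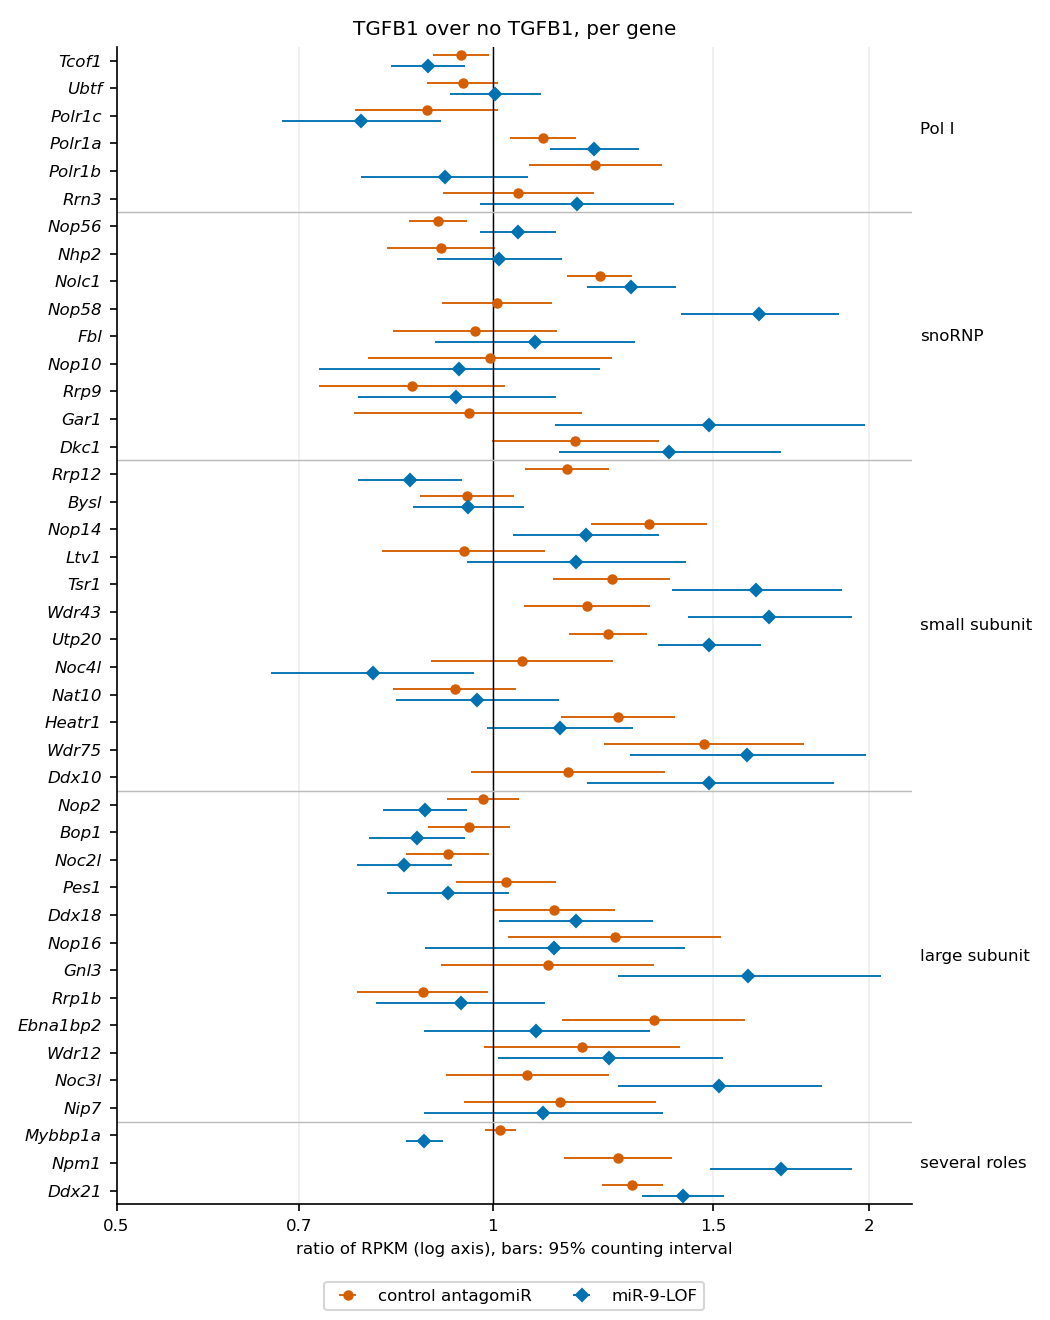
Ratio of RPKM with TGFB1 over without TGFB1 for each member on a log axis, with the control antagomiR (circles) and with miR-9-LOF (diamonds), with bars for the 95% counting interval. Npm1, Wdr43, Nop58 and Tsr1 lie at 1.62 to 1.70 with miR-9-LOF, and Wdr75 lies at 1.47 with the control antagomiR.

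For both treatments against Ctr, 1 of 42 members rose (Wdr75) and 0 fell, where 2.76% of the 9541 genes compared rose and 4.65% fell. Wdr75, which joins the rRNA precursor in the same complex as Wdr43 and Heatr1, had 220, 128, 258 and 264 counts. Its RPKM was 1.73 times that of Ctr (1.44 to 2.08) in the TGFB1+miR-9-LOF library, and its log2 ratio of 0.62 was 0.68 to 0.78 under the other 5 scalings. Both TGFB1 libraries were above both libraries without TGFB1, which comes from the same values that led to the naming of Wdr75. The next highest were Npm1 (0.43), Gnl3 (0.38), Wdr12 (0.37) and Wdr43 (0.34), and Npm1 was past the limit, at 0.59, only with totals that leave out Rn45s, Mir6236 and Lars2. The lowest were Tcof1 (-0.39), Nat10 (-0.28), Rrp1b (-0.28), Nop56 (-0.27) and Ubtf (-0.21). Nat10, which acetylates the small subunit rRNA, had 6.83, 5.60, 6.37 and 5.44 RPKM, and Rrp1b, a large subunit factor, had 5.38, 4.54, 4.73 and 4.27 RPKM. The member median was 0.05, or 0.12 to 0.20 under the other 5 scalings, and the all-gene median -0.08, and 35 of 42 members were above the all-gene median. This comparison shares its libraries with those above.

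**Figure D5:**
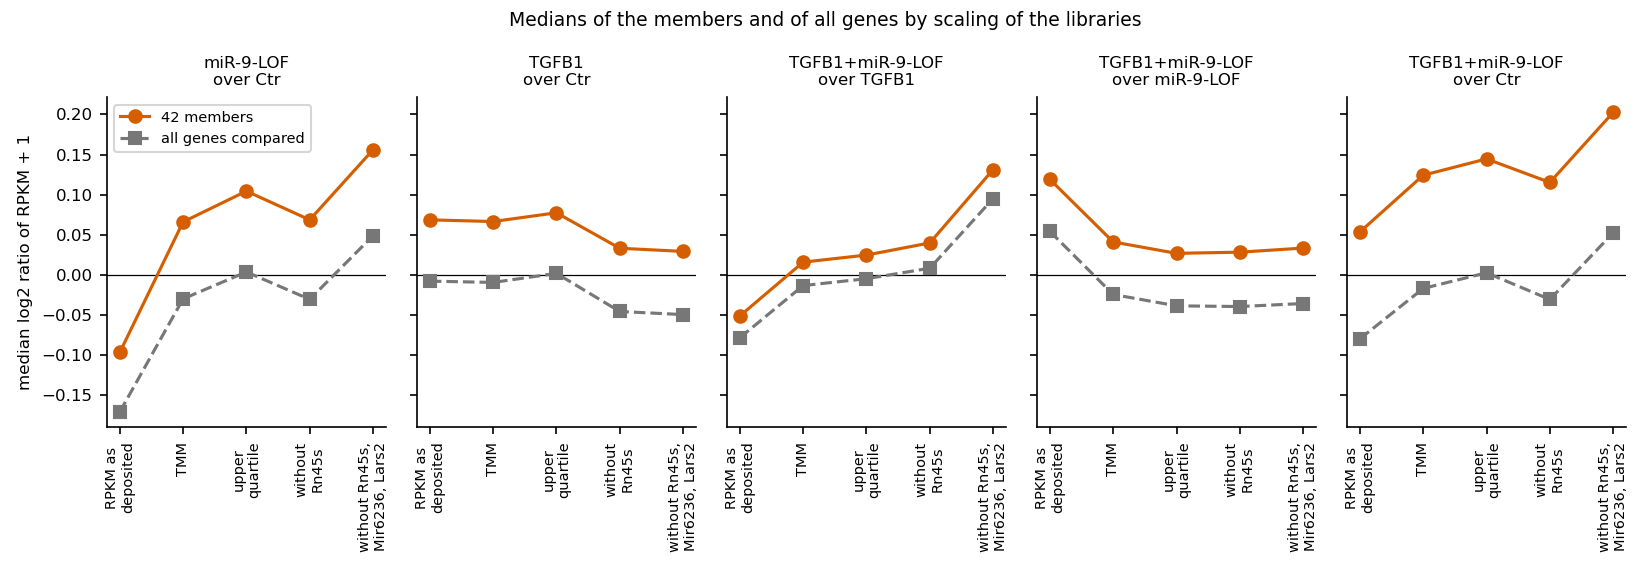
Median log2 ratio of RPKM + 1 of the 42 members (circles) and of all genes compared (squares) in each of the 5 comparisons, with the RPKM as deposited and with 4 other scalings of the libraries. The lines move together, and the member median stays above the all-gene median by 0.03 to 0.15.

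The remaining members, and the values of some named above only by a ratio, were as follows. Bysl, a small subunit assembly factor, had 11.5, 12.0, 10.9 and 11.5 RPKM. Heatr1 had 3.85, 3.79, 4.85 and 4.28 RPKM. Pes1 had 13.2, 13.4, 13.5 and 12.4 RPKM, and Fbl had 12.8, 12.1, 12.4 and 13.1 RPKM, the narrowest range. Nop10, an H/ACA protein, had 9.04, 10.4, 9.0 and 9.74 RPKM, and Dkc1 had 4.58, 3.68, 5.33 and 5.10 RPKM. Among large subunit factors, Bop1 had 23.6, 26.2, 22.6 and 22.8 RPKM and Noc2l 21.9, 25.3, 20.2 and 21.5 RPKM. Nop16 had 4.44, 4.76, 5.55 and 5.33 RPKM, Wdr12 3.30, 3.68, 3.88 and 4.56 RPKM, Noc3l 3.56, 2.96, 3.79 and 4.48 RPKM, and Gnl3, the nucleolar GTPase nucleostemin, 4.41, 3.76, 4.87 and 6.01 RPKM. Polr1c had 15.6, 19.4, 13.9 and 15.2 RPKM and Polr1b 4.89, 5.34, 5.91 and 4.89 RPKM.

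Several members carry snoRNAs in their introns, which are freed when the host transcript is spliced. The annotation places 18 snoRNAs inside 6 members (Dkc1, Gnl3, Nop56, Nop58, Tsr1 and Wdr43). The table listed 4 of these snoRNAs, in Nop56 and Nop58. Snord70 in Nop58 had 24, 53, 66 and 96 counts, and its RPKM ratio of miR-9-LOF over Ctr was 4.11 (2.50 to 6.97), where that of its host was 0.608. Snord110 in Nop56 had 20, 37, 46 and 66 counts and a ratio of 3.45 (1.95 to 6.27), where that of its host was 0.791. Snord57 in Nop56 had 42, 41, 75 and 82 counts and a ratio of 1.82 (1.15 to 2.87), and Snord11 in Nop58 had 15, 12, 29 and 14 counts and a ratio of 1.49 (0.637 to 3.41). For Snord70, Snord110 and Snord57 the Ctr library had the lowest RPKM and TGFB1+miR-9-LOF the highest. These counts are small, and the part of library preparation in them was not tested.

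The wider program was followed with 155 other genes in 6 lists, and 142 to 145 of them entered each comparison. For miR-9-LOF over Ctr, 0 of 142 rose and 3 fell, all large subunit factors: Rpf1 (log2 ratio -0.67), Gnl3l (-0.60) and Rpf2 (-0.59). Over all genes compared, 2.03% rose and 6.72% fell. Centred on the median of all genes, 0 of 142 fell and 6 rose, namely Eif6, Exosc5, Maf1, Nle1, Tbl3 and Wdr18, so these calls rest on the scaling. After this centring 1.88% of all genes fell and 4.03% rose. With TGFB1 in both libraries, 0 of 145 rose or fell with miR-9-LOF, where 2.06% of all genes compared rose and 1.48% fell. For TGFB1 over Ctr, 0 of 145 rose and Exosc3, a subunit of the RNA exosome, fell (-0.68). Of all genes compared there, 2.68% rose and 2.92% fell. For TGFB1+miR-9-LOF over miR-9-LOF, 9 of 144 rose and 1 fell, beside the 7.13% and 2.48% of all genes compared. After centring 6 of the 9 remained past the limit, namely Bms1, Brix1, Dcaf13, Fcf1, Ncl and Rpf1, where 5.17% of all genes rose. The large subunit and nucleolar genes that rose were Rpf1 (0.79), Brix1 (0.73) and Ncl (0.68), of which Ncl encodes nucleolin, with 46.0, 37.0, 55.3 and 59.6 RPKM. The small subunit genes that rose were Dcaf13 (0.70), Bms1 (0.69), Fcf1 (0.69), Riok1 (0.63) and Mphosph10 (0.59), and the polymerase III factor Gtf3c6 also rose (0.62). Polr2l, a subunit that all nuclear RNA polymerases share, fell (-0.64), and for both treatments over Ctr it was the only one of 145 past the limit (-0.66). For both treatments over Ctr, 2.76% of all genes rose and 4.65% fell. The medians of the 142 to 145 genes compared were -0.12, 0.08, -0.03, 0.13 and 0.02 in the 5 comparisons, where those of the 42 members were -0.10, 0.07, -0.05, 0.12 and 0.05.

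Within each list, the extremes for miR-9-LOF over Ctr were as follows, none past the limit other than those just named. In other RNA polymerase I genes they were Polr2f (0.35) and Polr2e (0.19) against Cd3eap (-0.29) and Taf1d (-0.27). In other small subunit factors they were Tbl3 (0.47) and Nop9 (0.33) against Bms1 (-0.56) and Utp25 (-0.47), and in other large subunit factors Nle1 (0.53) and Wdr18 (0.48) against Rpf1 and Gnl3l. In the exosome they were Exosc5 (0.56) and Exosc4 (0.13) against Exosc3 (-0.57) and Mphosph6 (-0.52). In snoRNP assembly factors they were Pih1d1 (0.27) and Ruvbl2 (0.17) against Znhit6 (-0.54) and Ruvbl1 (-0.19), and in polymerase III genes Maf1 (0.45), a repressor of that polymerase, and Polr3e (0.37) against Gtf3c4 (-0.37) and Crcp (-0.35). Each of these lists thus held genes on both sides of 0.

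For TGFB1+miR-9-LOF over TGFB1 the same lists ran from Polr2f (0.39) and Polr2h (0.21) to Cd3eap (-0.39) and Polr1d (-0.35) in polymerase I genes. They ran from Fcf1 (0.39) and Riok2 (0.24) to Pdcd11 (-0.45) and Wdr36 (-0.30) in small subunit factors, and from Rpf1 (0.35) and Mrto4 (0.32) to Surf6 (-0.51) and Gnl3l (-0.48) in large subunit factors. The exosome ran from Exosc3 (0.28) and Exosc5 (0.19) to Exosc8 (-0.45) and Mphosph6 (-0.33). The snoRNP assembly factors ran from Shq1 (0.08) and Snu13 (0.06) to Znhit3 (-0.25) and Znhit6 (-0.23), and polymerase III genes from Polr3c (0.18) and Maf1 (0.16) to Gtf3c1 (-0.42) and Polr3d (-0.24). Cd3eap, Gnl3l, Mphosph6 and Znhit6 were thus among the lowest of their lists in both miR-9-LOF comparisons. Polr2f, Exosc5 and Maf1 were among the highest in both. Rpf1 and Exosc3 were among the lowest without TGFB1 and among the highest with it. With TGFB1, the counting intervals of Mphosph6, Znhit6, Exosc5, Maf1 and Exosc3 held 1, and that of Exosc3 was 0.851 to 2.0. How many such repeats and reversals counting error alone would give was not tested.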

How the data were processed

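Total RNA of MLg cells was sequenced in 4 conditions with 1 library each, grouped by sample title (the titles point to rRNA depletion). The authors sequenced single-end reads, used Trimmomatic (version 0.36 per the submitters' notes) for trimming, mapped with Bowtie2 against mm10 and used HOMER to count exon reads of RefSeq transcripts on both strands. Overlapping and antisense genes therefore cannot be told apart, and isoforms share reads. For Bowtie2, HOMER and edgeR the version was not given in the sources read. The authors deposited raw counts for 25388 transcripts. RPKM values, computed by the authors through edgeR, were deposited over a library total that includes Rn45s, with 1 added to each, which was subtracted here. The deposited length column, a quantity of another kind, gives nucleotides per transcript. A further 3 columns hold the authors' own log2 fold changes and were not used.

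Each symbol was represented by its most abundant transcript per length. A gene was compared where its 2 libraries averaged at least 1 RPKM. Differences are log2 ratios of RPKM + 1, which understate changes of low genes, with the study's limit of 0.58. Intervals are exact 95% Clopper-Pearson intervals for counting error, tested on simulated data. Python 3.11.15, scipy 1.17.1 and R 4.3.3 with edgeR 4.0.16 (scaling factors only) were used. In all, 12 alternatives were tried. The 42 members, the lists and the limit were chosen with earlier results of these data known. Genes named are the members past the limit, the 5 highest and 5 lowest members per comparison, the 5 highest and 3 lowest by level, and the 2 highest and 2 lowest of each other list for the 2 miR-9-LOF comparisons, besides Rn45s, Mir6236 and Lars2. Each other member is given with its RPKM or within its role group. Other pathway genes past the limit were named, and the TMM check of interval counts added, after the values were seen.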

Additional observations from a re-analysis of the deposited data

Results flagged for a closer look

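For 3 members the miR-9-LOF ratio lay on opposite sides of 1 without and with TGFB1, with both counting intervals excluding 1, as for 1.95% of all genes compared. With TMM scaling this held for Rrp12 alone. The difference between the conditions was not tested, since each has 1 library. For Mybbp1a the log2 ratio with TGFB1 minus that without was -0.20, from 97.8 against 89.9 RPKM without TGFB1 and 86.2 against 91.1 RPKM with it. For Rrp12 the difference was -0.39, from 12.9 against 11.6 RPKM and from 11.1 against 13.3 RPKM. For Noc3l, a large subunit factor, it was 0.40, from 2.96 against 3.56 RPKM and from 4.48 against 3.79 RPKM.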

How the results depend on the processing

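No paired analysis was possible because each condition has 1 library. For miR-9-LOF over Ctr, the member median of -0.10 became 0.074 when centred on the median of all genes, 0.066 with TMM scaling, 0.10 with upper quartile scaling, 0.069 after Rn45s was left out of the totals and 0.16 after Rn45s, Mir6236 and Lars2 all were. The number of members that fell went from 1 to 0 under these 5 scalings, with 10 RPKM added or with a limit of 1, and to 2 with 0.1 RPKM added, and 1 rose after the 3 genes were left out. For TGFB1+miR-9-LOF over TGFB1, the median of -0.05 became 0.027, 0.016, 0.025, 0.040 and 0.13 under the same 5 scalings. For TGFB1 over Ctr, the median of 0.07 became -0.0069 among members with a mean RPKM of 5 or more. For TGFB1+miR-9-LOF over miR-9-LOF, 4 risen members became 1 with TMM, upper quartile or either reduced total, 7 with 0.1 RPKM added and 0 with 10 RPKM added or a limit of 1. For both treatments over Ctr, 1 risen member became 2 with totals without the 3 genes and 0 with 10 RPKM added, a mean RPKM of 5 or more or a limit of 1. Of the other values for single genes, 2275 moved little and 190 moved beyond counting error, none reversing a called direction. Over all genes, miR-9-LOF over Ctr had 2.03% risen and 6.72% fallen as deposited, and 3.62% and 2.24% with TMM. The same pair was 2.06% and 1.48% against 2.35% and 0.881% for TGFB1+miR-9-LOF over TGFB1, 7.13% and 2.48% against 4.82% and 3.83% for TGFB1+miR-9-LOF over miR-9-LOF. It was 2.76% and 4.65% against 3.24% and 3.39% for both treatments over Ctr. The miR-9-LOF library, the shallowest, limits precision, and with 1 library per condition no value shows variation between cultures.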
